A study of Mus musculus with 9 samples.

Results

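The proteasome is the protease complex that degrades ubiquitin-tagged proteins. The 33 genes described here belong to its constitutive form. They encode the 7 subunits of the alpha ring and the 7 subunits of the beta ring that build the 20S core. They also encode 18 subunits of the 19S cap, which recognizes, unfolds and feeds in substrates, and the maturation factor *Pomp*, which guides core assembly. The lid subunit *Sem1* is not among the 33 and is given below with the proteasome-bound factors. The 33 genes were matched by symbol, with no threshold on measured values, and all 33 were found among the 54432 genes of the table. The list was chosen with earlier results of these data known. RNAseq was performed on 9 libraries of RAW 264.7 macrophages, an established mouse macrophage-like cell line: 3 of untreated control cells (CTRL), 3 of cells given VLDL-sized emulsion particles (VLDLsep) and 3 of cells given emulsion particles of the size of chylomicrons (CHYL-sized, CHYLsep), both at 1 mM over 6 hours. All cells grew in DMEM with serum and antibiotics, the particles were sunflower oil emulsions stabilized with sodium caseinate, and the control cells received no particles. The methods speak of biological triplicates and of samples pooled within an experiment, so a library is a pool of cultures of 1 cell line.

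In the 20S core, the alpha ring gates entry and 3 subunits of the beta ring do the cutting: *Psmb5* has the chymotrypsin-like, *Psmb6* the caspase-like and *Psmb7* the trypsin-like activity. The base of the 19S cap holds a ring of ATPases that unfold substrates and the ubiquitin receptors, and its lid holds the deubiquitinase *Psmd14*. In macrophages the 3 catalytic subunits can be exchanged for *Psmb8*, *Psmb9* and *Psmb10*, which form the immunoproteasome induced by interferon. Transcription of the constitutive genes is known to be raised by NFE2L1, a factor that is taken out of the endoplasmic reticulum by the ATPase VCP, deglycosylated by NGLY1 and cleaved by DDI2, and that binds antioxidant response elements.

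The libraries held 22393893 to 22856792 estimated counts each. The 8 macrophage markers, among them *Lyz2*, *Csf1r* and *Cd68*, were detected in each library, with a summed level of 6310 to 6400 cpm (estimated counts scaled to a common library size with TMM factors) in CTRL, 5680 to 5900 cpm in VLDLsep and 5840 to 6050 cpm in CHYLsep. The 3 T cell, 3 B cell and 3 epithelial markers reached at most 3 counts in a library, and of the 3 fibroblast markers *Pdgfra* reached 55 counts and the others at most 4. These are bulk samples, in which fewer cells of a type and less RNA per cell cannot be told apart. Replicate 3 of each group stood apart from replicates 1 and 2 along the second principal component of all tested genes, which held 15% of the variance, at -13.3 to -16.8 against 4.63 to 9.67. The proteasome genes moved with this split. Their level was highest in replicate 3 for 25 of 33 genes in CTRL, 30 of 33 in VLDLsep and 24 of 33 in CHYLsep. For this reason the numbers called among all 33 genes are given also without replicate 3.

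Constitutive proteasome genes were higher after treatment with either particle. After VLDL-sized particles 28 of the 33 genes passed the test as higher and none as lower, with all 33 fold changes above 0 and a median log2 fold change of 0.29 (1.22-fold). After CHYL-sized particles 20 of 33 passed as higher and none as lower, again with all 33 above 0, at a median of 0.24 (1.18-fold). Over all 12637 genes tested, 17.8% passed as higher and 17.9% as lower after VLDL-sized particles, and 12.7% as higher and 13% as lower after CHYL-sized particles, with medians of -0.00028 and 0.0013. A gene passed where limma-voom gave it an adjusted p under 0.05, with the adjustment made over the 12637 genes. The 3 libraries of each particle lay above all 3 control libraries for 31 of 33 genes after VLDL-sized particles, against 23.7% of all genes tested, and for 30 of 33 after CHYL-sized particles, against 20.8%. Both comparisons use the same 3 control libraries, so they are not independent of each other.

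The share of all estimated counts that fell on the 33 genes scales each library by its total only, without TMM factors. It was 0.533%, 0.538% and 0.558% in CTRL replicates 1, 2 and 3, 0.641%, 0.642% and 0.68% in VLDLsep, and 0.613%, 0.629% and 0.647% in CHYLsep. The groups treated with particles did not overlap with control, and VLDLsep overlapped with CHYLsep. When libraries were blocked by replicate number, 32 genes passed as higher after VLDL-sized particles (24.1% of all genes tested) and 30 after CHYL-sized particles (19.5%). Without replicate 3 of every group the numbers were 29 and 27 (22% and 17.4% of all genes tested). Under library size only, in place of TMM, they were 19 and 17 (11.9% and 8.45%). The lowest number without 1 library after VLDL-sized particles was 20, without CTRL replicate 1 (13.7% of all genes tested). After CHYL-sized particles it was 16, without CTRL replicate 1 (8.95%) or without CTRL replicate 2 (9.34%).

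**Figure D1:**
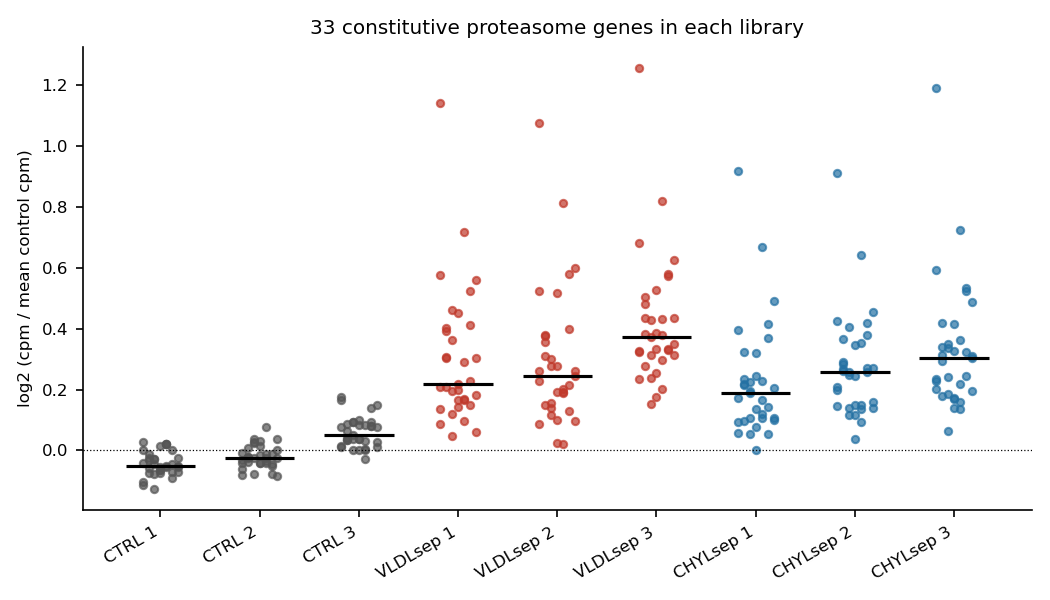
Level of each of the 33 constitutive proteasome genes in each library, as the log2 of its cpm over its mean cpm in the 3 control libraries; points are genes, black lines are medians and the dotted line is the control mean. The medians lie between -0.0502 and 0.0524 in control, between 0.219 and 0.374 in VLDLsep and between 0.189 and 0.304 in CHYLsep, and replicate 3 has the highest median in each group.

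Among the members, fold changes were spread widely. The lid subunit *Psmd11* stood at a log2 fold change of 1.16 after VLDL-sized and 1.01 after CHYL-sized particles and the alpha subunit *Psma5* at 0.78 and 0.67, while the remaining 31 genes lay at 0.60 or below in both comparisons. Next came *Psmc1*, *Psmd1* and *Psmc6*, at 0.60, 0.59 and 0.56 after VLDL-sized and 0.48, 0.48 and 0.45 after CHYL-sized particles. At the lower end were *Psmc3*, *Psmd3* and *Pomp*. Differences in fold change between members were not tested. Of the 28 genes called after VLDL-sized particles, 19 were called under each of the 15 alternatives in normalization, filter, tool, samples and replicates, and of the 20 called after CHYL-sized particles, 15 were.

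**Figure D2:**
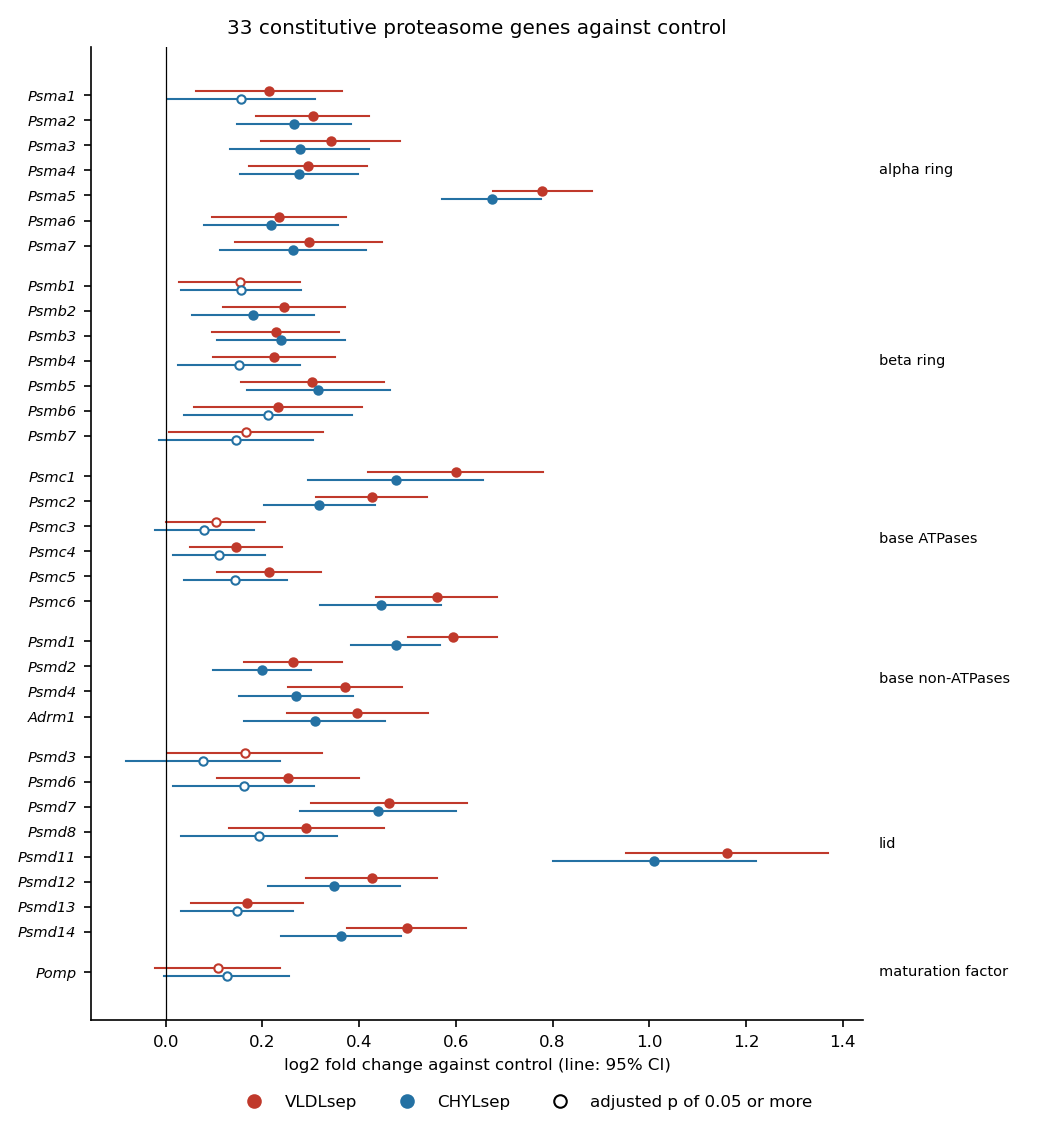
Log2 fold change against control of the 33 constitutive proteasome genes after VLDL-sized (red) and CHYL-sized (blue) particles, grouped by their place in the complex, with 95% confidence intervals from limma-voom; filled points have an adjusted p under 0.05. All points lie right of 0, and *Psmd11* and *Psma5* lie apart from the rest of their groups.

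As NFE2L1 acts through antioxidant response elements, the promoters were searched for the core of this element, TGACNNNGC on either strand, and for the CCAAT box, CCAAT on either strand; the motifs can share at most 1 letter, at their ends. RefSeq windows of 250 bases before to 50 bases after the start site (GRCm38.p6) were found for 27 of the 33 genes, in 29 windows. The core was present for 5 of the 27 genes (18.5%), against 14% of all 27025 genes with a window, and the CCAAT box for 11 of 27 (40.7%), against 41.1%. The 5 windows with the core are shown in the direction of the gene, with the core in capitals and up to 20 bases on either side:
*Psmb5* (chr14:54618014-54618062, minus strand, 47 bases before the start site): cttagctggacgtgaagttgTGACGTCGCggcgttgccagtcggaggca
*Psmb6* (chr11:70525328-70525376, plus strand, 9 bases before the start site): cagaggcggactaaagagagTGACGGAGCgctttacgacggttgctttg
*Psmc6* (chr14:45329577-45329625, plus strand, core on the opposite strand, 227 bases before): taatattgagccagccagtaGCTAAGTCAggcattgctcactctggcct
*Adrm1* (chr2:180171406-180171454, plus strand, 162 bases before): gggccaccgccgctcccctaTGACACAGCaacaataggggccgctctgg
*Psmd12* (chr11:107479278-107479309, plus strand, core on the opposite strand, 247 bases before): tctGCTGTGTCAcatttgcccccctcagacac
The windows of *Psmd11* and *Psma5*, the genes with the highest fold changes, held neither motif in these letters. Their 250 bases before the start site are shown for comparison with the sequences above:
*Psmd11* (chr11:80428365-80428614, plus strand): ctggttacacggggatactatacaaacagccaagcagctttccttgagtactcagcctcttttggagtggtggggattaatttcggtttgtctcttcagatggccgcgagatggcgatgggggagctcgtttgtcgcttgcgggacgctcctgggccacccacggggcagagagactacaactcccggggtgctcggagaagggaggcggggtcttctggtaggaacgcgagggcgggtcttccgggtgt
*Psma5* (chr3:108256676-108256925, plus strand): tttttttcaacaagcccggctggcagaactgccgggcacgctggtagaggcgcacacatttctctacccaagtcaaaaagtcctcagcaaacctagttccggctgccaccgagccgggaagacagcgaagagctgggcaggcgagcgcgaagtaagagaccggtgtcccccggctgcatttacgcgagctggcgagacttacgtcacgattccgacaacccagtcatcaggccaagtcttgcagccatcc
Of the 5 genes with the core, *Psmc6*, *Psmd12*, *Adrm1* and *Psmb5* were called higher after both particles, and *Psmb6* after VLDL-sized particles. Over all 33 members, 28 were called higher after VLDL-sized and 20 after CHYL-sized particles, against 17.8% and 12.7% of all genes tested. A link between the core and the fold changes was not tested.

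The 7 genes of the alpha ring, the outer rings of the core that keep its entry closed, were all called higher after VLDL-sized particles. Their log2 fold changes were 0.21 to 0.78 (median 0.30), and 17.8% of all genes tested were called higher. After CHYL-sized particles 6 of 7 were called, against 12.7% of all genes tested, at 0.16 to 0.67 (median 0.27). The exception was *Psma1* (0.16, limma-voom adjusted p = 0.12). When libraries were blocked by replicate number all 7 were called, against 19.5% of all genes tested (*Psma1* limma-voom adjusted p = 0.0076). The calls of *Psma1* and *Psma6* after VLDL-sized particles and of *Psma6* and *Psma7* after CHYL-sized particles were lost without CTRL replicate 1 and without CTRL replicate 2. The calls of *Psma1* and *Psma6* after VLDL-sized and of *Psma6* after CHYL-sized particles were lost also under library size only, that of *Psma1* without VLDLsep replicate 2 or 3, and those of *Psma6* and *Psma7* after CHYL-sized particles without CHYLsep replicate 2 or 3. *Psma5* (ENSMUSG00000068749, chr3:108256926-108279974, plus strand, GRCm38) was at 134, 131 and 132 cpm in CTRL replicates 1, 2 and 3, at 217, 232 and 233 cpm in VLDLsep and at 210, 206 and 218 cpm in CHYLsep. The control libraries lay close together, and each library with particles was far above them. *Gm12989*, which shares 40% of the 31-base words of *Psma5*, had at most 2.01 counts. The log2 fold change was 0.78 ± 0.0463 (SE, n = 3 libraries a group, limma-voom adjusted p = 1.1e-06) after VLDL-sized and 0.67 ± 0.0463 (adjusted p = 4.3e-06) after CHYL-sized particles. *Psma3* shared 22.8% of its 31-base words with *Gm13835*, an annotated gene with up to 1540 counts, so reads could have been split between them. With the counts of *Gm13835* added to it, *Psma3* stood at 0.33 and 0.27 in place of 0.34 and 0.28, called higher in both.

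Of the 7 genes of the beta ring, 5 were called higher after VLDL-sized particles, against 17.8% of all genes tested, with all 7 at 0.15 to 0.30 (median 0.23). After CHYL-sized particles 3 were called higher, against 12.7% of all genes tested, with all 7 at 0.15 to 0.32 (median 0.18). *Psmb2*, *Psmb3* and *Psmb5* were called after both, *Psmb4* and *Psmb6* after VLDL-sized particles, and *Psmb1* and *Psmb7* after neither. With the replicate block all 7 were called after both, against 24.1% and 19.5% of all genes tested. After VLDL-sized particles the calls of *Psmb3* and *Psmb4* were lost under library size only and without CTRL replicate 1, that of *Psmb3* also without CTRL replicate 2. After CHYL-sized particles the call of *Psmb2* was lost in 7 of 15 alternatives (library size only, no filter on low counts, and without any 1 CTRL library or CHYLsep replicate 2 or 3) and that of *Psmb3* in 3, without CTRL replicate 1, CTRL replicate 2 or CHYLsep replicate 2. *Psmb5* (ENSMUSG00000022193, chr14:54614119-54618022, minus strand), the chymotrypsin-like subunit, was at 96.2, 93.1 and 95.2 cpm in CTRL, at 116, 108 and 128 cpm in VLDLsep and at 111, 121 and 122 cpm in CHYLsep. The control libraries were the lowest and lay close together. Its log2 fold change was 0.30 ± 0.0667 (SE, n = 3 a group, limma-voom adjusted p = 0.005) after VLDL-sized and 0.32 ± 0.0667 (adjusted p = 0.0058) after CHYL-sized particles. *Psmb5* shared 59.8% of its 31-base words with *Gm3375*, which had up to 715 counts a library; with these counts added, it stood at 0.30 and 0.29, called higher in both.

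*Psmb6* (ENSMUSG00000018286, chr11:70525367-70527858, plus strand), the caspase-like subunit, was at 211, 200 and 223 cpm in CTRL, at 247, 231 and 266 cpm in VLDLsep and at 219, 252 and 264 cpm in CHYLsep. CHYLsep replicate 1 fell within the control range, and the VLDLsep libraries lay above it. Its log2 fold change was 0.23 ± 0.0783 (SE, n = 3 a group, limma-voom adjusted p = 0.04) after VLDL-sized particles, a call lost under library size only, without CTRL replicate 1, without CTRL replicate 2, without VLDLsep replicate 1 and without VLDLsep replicate 3. After CHYL-sized particles it was 0.21 ± 0.0783 (adjusted p = 0.072), and the block gave an adjusted p of 0.0073. *Psmb7* (ENSMUSG00000026750, chr2:38588036-38644087, minus strand), the trypsin-like subunit, was at 113, 120 and 118 cpm in CTRL, at 122, 125 and 149 cpm in VLDLsep and at 126, 129 and 134 cpm in CHYLsep. No library with particles fell within the control range, and VLDLsep replicate 3 was the highest. The log2 fold change was 0.17 ± 0.0717 (SE, n = 3 a group, limma-voom adjusted p = 0.097, and 0.02 with the replicate block) after VLDL-sized and 0.15 ± 0.0717 (adjusted p = 0.17, and 0.044 with the block) after CHYL-sized particles. The exons of *Psmb7* overlap those of *Nek6* on the opposite strand over 405 bases; as the sources used here do not state whether the library kit marks strand, reads from this stretch may belong to either gene.

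**Figure D3:**
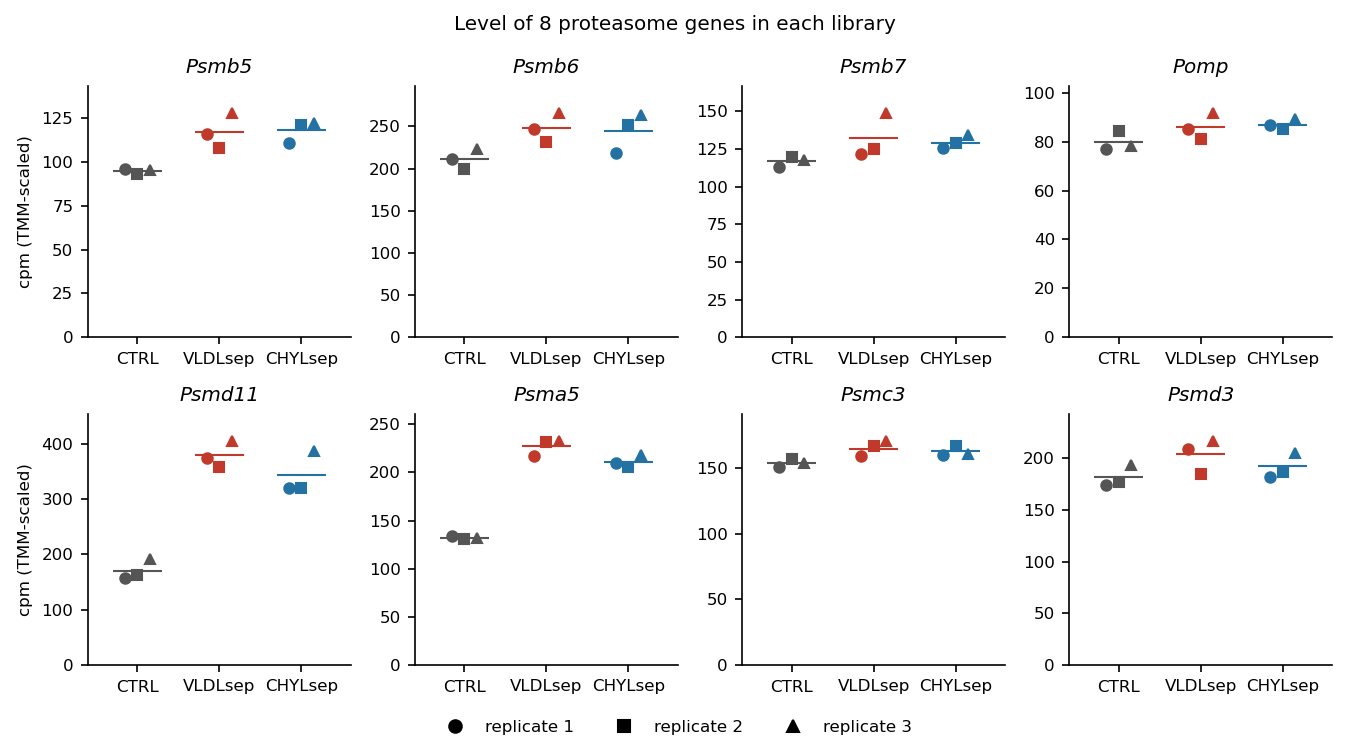
Level in cpm of the 3 catalytic subunits, the maturation factor *Pomp* and the members with the highest and lowest fold changes, in each of the 9 libraries; symbols mark the replicate number, lines are group means and each axis starts at 0. *Psmd11* and *Psma5* show a wide gap between control and treated libraries, *Psmb5* a narrow one, and *Psmd3* overlapping groups.

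Per kb of transcript, the level of the genes differed by severalfold within the complex. Over the 27 genes whose longest transcript is within 1.5 times the median length, the mean control level ran from 55.1 cpm per kb for *Psmc6* to 296 cpm per kb for *Psmd8*, with a median of 107. Among the catalytic subunits it was 265 cpm per kb for *Psmb6*, 125 for *Psmb5* and 101 for *Psmb7*. A gene with several transcripts of unequal length has no single value per kb, and the other 6 genes, *Psmd11* and *Pomp* among them, were left out for this.

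Of the 6 ATPases of the 19S base, 5 were called higher after VLDL-sized particles (median 0.32) and 3 after CHYL-sized particles (median 0.23). The shares of all genes tested were 17.8% and 12.7%. *Psmc1*, *Psmc2* and *Psmc6* were called higher after both particles, at log2 fold changes of 0.60, 0.43 and 0.56 after VLDL-sized and 0.48, 0.32 and 0.45 after CHYL-sized particles, each under every alternative. *Psmc4* and *Psmc5* were called after VLDL-sized particles, at 0.14 and 0.21. After CHYL-sized particles they stood at 0.11 and 0.14, called with the replicate block (limma-voom adjusted p = 0.032 and 0.014). The block gave 5 of 6 ATPases there, against 19.5% of all genes tested. The call of *Psmc4* after VLDL-sized particles was lost under library size only, at 0.0516, and without CTRL replicate 1, CTRL replicate 2, VLDLsep replicate 1 or VLDLsep replicate 3, and that of *Psmc5* under library size only. *Psmc3* (ENSMUSG00000002102, chr2:91054009-91066369, plus strand) was called after neither, at 151, 157 and 154 cpm in CTRL, at 159, 167 and 171 cpm in VLDLsep and at 160, 167 and 161 cpm in CHYLsep. Its treated libraries all lay above control, the lowest at 159 cpm against 157 cpm in the highest control library. The log2 fold change was 0.10 ± 0.0461 (SE, n = 3 a group, limma-voom adjusted p = 0.11, and 0.039 with the replicate block) after VLDL-sized and 0.08 ± 0.0461 (adjusted p = 0.24) after CHYL-sized particles, and under library size only it was -0.00027 in the latter. Exons of *Psmc3* overlap *Slc39a13* on the opposite strand over 215 bases.

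All 4 base subunits without ATPase activity were called higher after both particles, against 17.8% and 12.7% of all genes tested. *Psmd1*, a large scaffold of the base, was at 298 to 309 cpm in CTRL, at 447 to 468 cpm in VLDLsep and at 415 to 426 cpm in CHYLsep, and its 3 groups did not overlap. Its log2 fold changes were 0.59 and 0.48. *Psmd2*, its partner scaffold, stood at 0.26 and 0.20, and the ubiquitin receptors *Psmd4* and *Adrm1* at 0.37 and 0.40 after VLDL-sized and 0.27 and 0.31 after CHYL-sized particles. Of these 8 calls, that of *Psmd2* after CHYL-sized particles was lost under library size only, and the others held under each alternative.

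Of the 8 lid genes among the members, 7 were called higher after VLDL-sized particles, against 17.8% of all genes tested. All 8 lay at 0.16 to 1.16 (median 0.36). After CHYL-sized particles 4 were called, against 12.7% of all genes tested, with all 8 at 0.08 to 1.01 (median 0.27). *Psmd7*, *Psmd11*, *Psmd12* and *Psmd14* were called after both. *Psmd11* (ENSMUSG00000017428, chr11:80428615-80473248, plus strand), a scaffold subunit of the lid known to promote assembly of the cap onto the core, was at 157, 163 and 192 cpm in CTRL, at 375, 358 and 406 cpm in VLDLsep and at 321, 320 and 388 cpm in CHYLsep. Replicate 3 was the highest of each group, and the lowest treated library, at 320 cpm, was well above the highest control. The mean rose from 170 ± 18.9 cpm (SD, n = 3) to 380 ± 24.6 cpm after VLDL-sized and 343 ± 39.2 cpm after CHYL-sized particles. The log2 fold change was 1.16 ± 0.0943 (SE, limma-voom adjusted p = 8.4e-06, 2.24-fold) and 1.01 ± 0.0944 (adjusted p = 3.6e-05, 2.01-fold), and over the 15 alternatives it stayed between 1.07 and 1.25 and between 0.92 and 1.10.

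*Psmd14*, the lid deubiquitinase that removes the ubiquitin chain before degradation, was at 88.9 to 99.5 cpm in CTRL, at 127 to 134 cpm in VLDLsep and at 116 to 124 cpm in CHYLsep, with log2 fold changes of 0.50 and 0.36. *Psmd7*, its partner in the same dimer, stood at 0.46 and 0.44, and *Psmd12* at 0.43 and 0.35. *Psmd6*, *Psmd8* and *Psmd13* were called after VLDL-sized particles, at 0.25, 0.29 and 0.17. After CHYL-sized particles they stood at 0.16, 0.19 and 0.15, and all 3 were called with the replicate block, against 19.5% of all genes tested. After VLDL-sized particles the call of *Psmd13* was lost under library size only, at 0.0752, with no filter on low counts, in a fit of only the 2 groups and without CTRL replicate 1, VLDLsep replicate 2 or VLDLsep replicate 3, and that of *Psmd6* under library size only and without CTRL replicate 1. *Psmd13* shares 342 bases of exon with *Sirt3* on the opposite strand. *Psmd3* (ENSMUSG00000017221, chr11:98682554-98695979, plus strand) was at 174, 177 and 193 cpm in CTRL, at 209, 185 and 217 cpm in VLDLsep and at 182, 187 and 205 cpm in CHYLsep, and both treated groups overlapped with control. Its log2 fold change was 0.16 ± 0.0719 (SE, n = 3 a group, limma-voom adjusted p = 0.1, and 0.0095 with the replicate block) after VLDL-sized and 0.08 ± 0.0719 (adjusted p = 0.48) after CHYL-sized particles, and under library size only it was -0.0029 in the latter.

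*Pomp* (ENSMUSG00000029649, chr5:147860461-147876456, plus strand), the maturation factor that is degraded as the first substrate of a new core, was not called in any comparison or alternative. It was at 77, 84.2 and 78.3 cpm in CTRL, at 85.3, 81 and 91.8 cpm in VLDLsep and at 86.8, 85.1 and 89.2 cpm in CHYLsep. VLDLsep overlapped with control, and CHYLsep lay just above it. The log2 fold change was 0.11 (95% CI -0.02 to 0.24, limma-voom adjusted p = 0.18) after VLDL-sized and 0.13 (95% CI -0.0036 to 0.26, adjusted p = 0.15) after CHYL-sized particles.

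To see whether particle size mattered, VLDL-sized particles were compared with CHYL-sized particles at the dose and time that the labels give for both. A supplementary legend of the study names a lower dose for CHYL-sized particles in this cell line, so an equal dose rests on the labels and methods. None of the 33 genes was called by limma-voom, edgeR or DESeq2, and 0% of all 12637 genes were by limma-voom, where 3 of the 33 and 813 of all genes had an unadjusted p under 0.05. The log2 fold changes ran from -0.02 for *Pomp* to 0.15 for *Psmd11*, with 29 of 33 above 0 and a median of 0.06. *Psmd11* differed by 0.15 (95% CI -0.06 to 0.36, limma-voom adjusted p = 0.84). Without replicate 3 of every group it was called at 0.20 (limma-voom adjusted p = 0.037, with 0.037 to 1 over the 15 alternatives). That fit called 1.15% of all genes tested as higher. The unadjusted 95% intervals of *Psmd14* (0.14, 95% CI 0.01 to 0.26), *Psmd1* (0.12, 95% CI 0.03 to 0.21) and *Psma5* (0.10, 95% CI 0.0031 to 0.21) lay above 0, with adjusted p of 0.74, 0.66 and 0.77. The VLDLsep libraries lay above all CHYLsep libraries for 3 of the 33 genes, *Psmd1*, *Psmd14* and *Psmc2*, against 5.66% of all genes tested. These intervals still allow differences of up to 0.36 on the log2 scale for *Psmd11* and of up to 0.30 for *Psmc1*.

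The immunoproteasome went the other way. All 3 catalytic subunits of this form were called lower after VLDL-sized particles, and *Psmb9* after CHYL-sized particles. Of all genes tested, 17.9% and 13% were called lower. *Psmb9* was at 26.6 to 28.8 cpm in CTRL, at 18.6 to 19.8 cpm in VLDLsep and at 20.2 to 22 cpm in CHYLsep, at log2 fold changes of -0.54 (limma-voom adjusted p = 0.00014) and -0.38 (adjusted p = 0.0018), called under each alternative. *Psmb8* stood at -0.18 and -0.09 and *Psmb10* at -0.22 and -0.10, and their calls after VLDL-sized particles were lost when CTRL replicate 1, CTRL replicate 2 or VLDLsep replicate 1 or 3 was left out and with no filter on low counts, that of *Psmb10* also without VLDLsep replicate 2 and that of *Psmb8* also in a fit of only the 2 groups. *Psmb9* shares 212 bases of exon with *Tap1* on the opposite strand. In each library the log2 ratio of counts was formed between a constitutive subunit and the one that replaces it, which needs no scaling between libraries.

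The ratio of *Psmb6* to *Psmb9* was 7.92, 6.92 and 8.1 in CTRL, 12.4, 12.4 and 14.3 in VLDLsep and 10.2, 11.4 and 13.1 in CHYLsep. The ratio of *Psmb5* to *Psmb8* was 1.17, 1.11 and 1.24 in CTRL, 1.7, 1.41 and 1.84 in VLDLsep and 1.5, 1.5 and 1.67 in CHYLsep. That of *Psmb7* to *Psmb10* was 2.52, 2.65 and 2.65 in CTRL, 3.12, 3.3 and 3.85 in VLDLsep and 3.17, 2.77 and 3.39 in CHYLsep. For all 3 pairs the treated libraries lay above control with both particles, by 0.77 and 0.59 for *Psmb6* to *Psmb9*, 0.49 and 0.41 for *Psmb5* to *Psmb8* and 0.39 and 0.25 for *Psmb7* to *Psmb10* on the log2 scale. With 3 libraries against 3 the two-sided exact permutation test cannot go below p = 0.1, and it gave 0.1 for each of these 6 differences (0.15 after adjustment over the 9 tests). VLDLsep and CHYLsep overlapped for all 3 pairs (exact permutation p = 0.3 to 0.6).

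**Figure D4:**
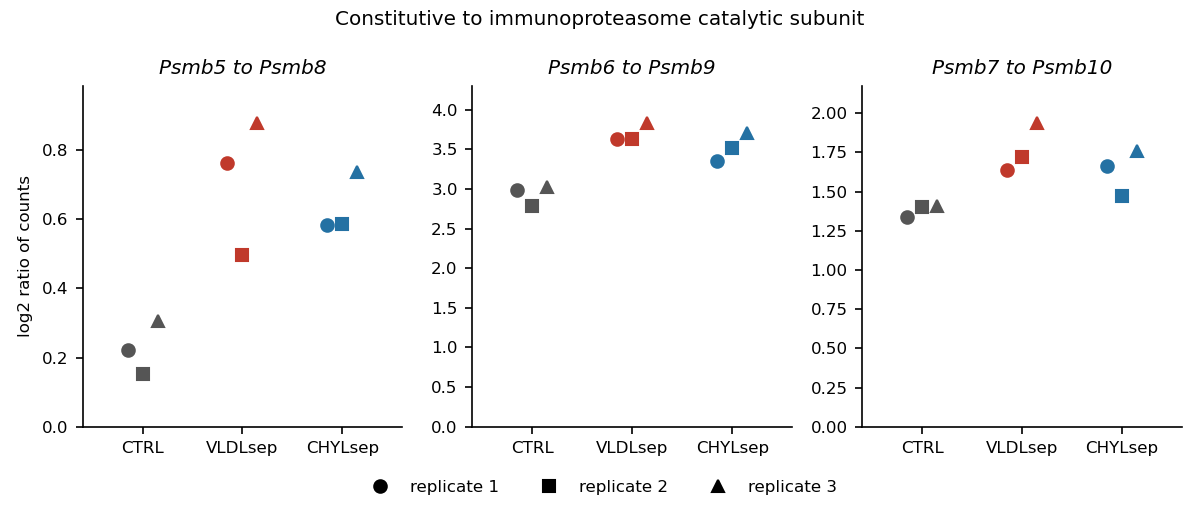
Log2 ratio of the counts of a constitutive catalytic subunit to the immunoproteasome subunit that replaces it, in each of the 9 libraries, with symbols for the replicate number. In all 3 pairs the 3 control libraries are the lowest, and replicate 3 is the highest of each group.

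The other genes of the pathway did not move as 1 block. Of the 43 genes listed, 39 were tested. After VLDL-sized particles 15 were called higher and 4 lower, against 17.8% and 17.9% of all genes tested. After CHYL-sized particles 14 were called higher and 1 lower, against 12.7% and 13%. Under library size only, 4 of these calls after VLDL-sized and 3 after CHYL-sized particles were lost. Without CTRL replicate 1, 4 were lost after each. *Psma8*, *Psmb11*, *Nfe2l3* and *Ddi1*, subunits and factors known from other tissues, had too few counts to be tested. Among the regulatory caps, which replace or accompany the 19S cap, *Psme4* (PA200) was called higher, at 89.7 to 104 cpm in CTRL, 133 to 154 cpm in VLDLsep and 118 to 140 cpm in CHYLsep, with log2 fold changes of 0.60 and 0.41. The interferon-inducible *Psme1* and *Psme2*, *Psme3* and the inhibitor *Psmf1* lay between -0.04 and 0.06 in both comparisons, with no call.

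Among the 7 assembly chaperones, *Psmd5*, which holds base ATPases before the cap is built, was called higher after both particles. It was at 56.4 to 58 cpm in CTRL, at 121 to 125 cpm in VLDLsep and at 113 to 123 cpm in CHYLsep, a log2 fold change of 1.11 and 1.06 (limma-voom adjusted p = 1.4e-07 and 2.2e-07). *Psmd10* (gankyrin) stood at 0.25 and 0.34 and was called after CHYL-sized particles (adjusted p = 0.02), and after VLDL-sized particles with the replicate block (adjusted p = 0.0036) but not without it (0.054). The core chaperones *Psmg1* to *Psmg4* and the base chaperone *Psmd9* lay between -0.13 and 0.01 with no call.

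Of the 10 proteasome-bound factors, 4 were called higher after both particles, against 17.8% and 12.7% of all genes tested. These were the deubiquitinase *Usp14* (0.33 and 0.26), the adaptor *Ecpas* (0.64 and 0.48) and the ubiquitin shuttles *Rad23b* (0.44 and 0.35) and *Ubqln1* (0.39 and 0.24). *Sem1*, *Uchl5*, *Ube3c*, *Ubqln2* and *Ubqln4* lay between -0.13 and 0.13 with no call. The replicate block called *Sem1* higher after VLDL-sized particles, and *Ubqln2* higher and *Ubqln4* lower after CHYL-sized particles. It called 24.1% of all genes tested higher after VLDL-sized particles. After CHYL-sized particles it called 19.5% higher, and 2481 of 12637 lower. Exons of *Usp14* overlap *Thoc1* on the opposite strand over 2169 bases.

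Among the ubiquitin genes and the E1 enzymes that activate ubiquitin, *Ubb*, which encodes polyubiquitin, was called higher after both particles, at log2 fold changes of 0.70 and 0.56. *Ubb* shares 49.3% of its 31-base words with *Gm1821*, which had up to 107 counts. The E1 enzymes *Uba1* and *Uba6* were called after VLDL-sized particles, at 0.16 and 0.26, and stood at 0.11 and 0.14 after CHYL-sized particles, called there with the replicate block. *Rps27a*, which encodes ubiquitin fused to a ribosomal protein, stood at 0.10 in both comparisons, with no call.

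Among the regulators, *Nfe2l1* was at 226, 237 and 235 cpm in CTRL, at 280, 280 and 283 cpm in VLDLsep and at 245, 227 and 246 cpm in CHYLsep. The VLDLsep libraries lay above all others, and CHYLsep overlapped with control. Its log2 fold change was 0.27 (limma-voom adjusted p = 0.0011) after VLDL-sized and 0.04 (adjusted p = 0.58) after CHYL-sized particles. The difference between the particles was 0.23 for *Nfe2l1* (limma-voom adjusted p = 0.5). It was called with the replicate block (adjusted p = 0.029), by DESeq2 and without replicate 3 of every group, with an adjusted p of 0.014 to 1 over the 15 alternatives. Same-numbered libraries of these groups correlated at 0.096, 0.18 and 0.5 for replicates 1, 2 and 3 over all genes tested, so the pairing was weakest for replicate 1.

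*Vcp* and its cofactors *Nploc4* and *Ufd1*, which pull ubiquitin-tagged proteins out of membranes, were called higher after both particles, at 0.43, 0.45 and 0.26 after VLDL-sized and 0.35, 0.32 and 0.24 after CHYL-sized particles. *Vcp* was at 457 to 485 cpm in CTRL, at 608 to 681 cpm in VLDLsep and at 595 to 612 cpm in CHYLsep. Exons of *Ufd1* overlap *Cdc45* on the opposite strand over 209 bases. *Cdc45* had up to 979 counts a library, where the lowest count of *Ufd1* was 847. *Keap1*, the adaptor that marks NFE2L2 for degradation, was called after both, at 0.28 and 0.27 (limma-voom adjusted p = 0.026 and 0.042). *Ddi2*, the protease that cleaves NFE2L1, was called lower after VLDL-sized particles at -0.15 (adjusted p = 0.03), a call lost when CTRL replicate 1 or 2 or VLDLsep replicate 1 or 3 was left out. *Nfe2l2* stood at -0.14 and -0.11 and *Ngly1* at -0.18 and -0.09, with no call.

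**Figure D5:**
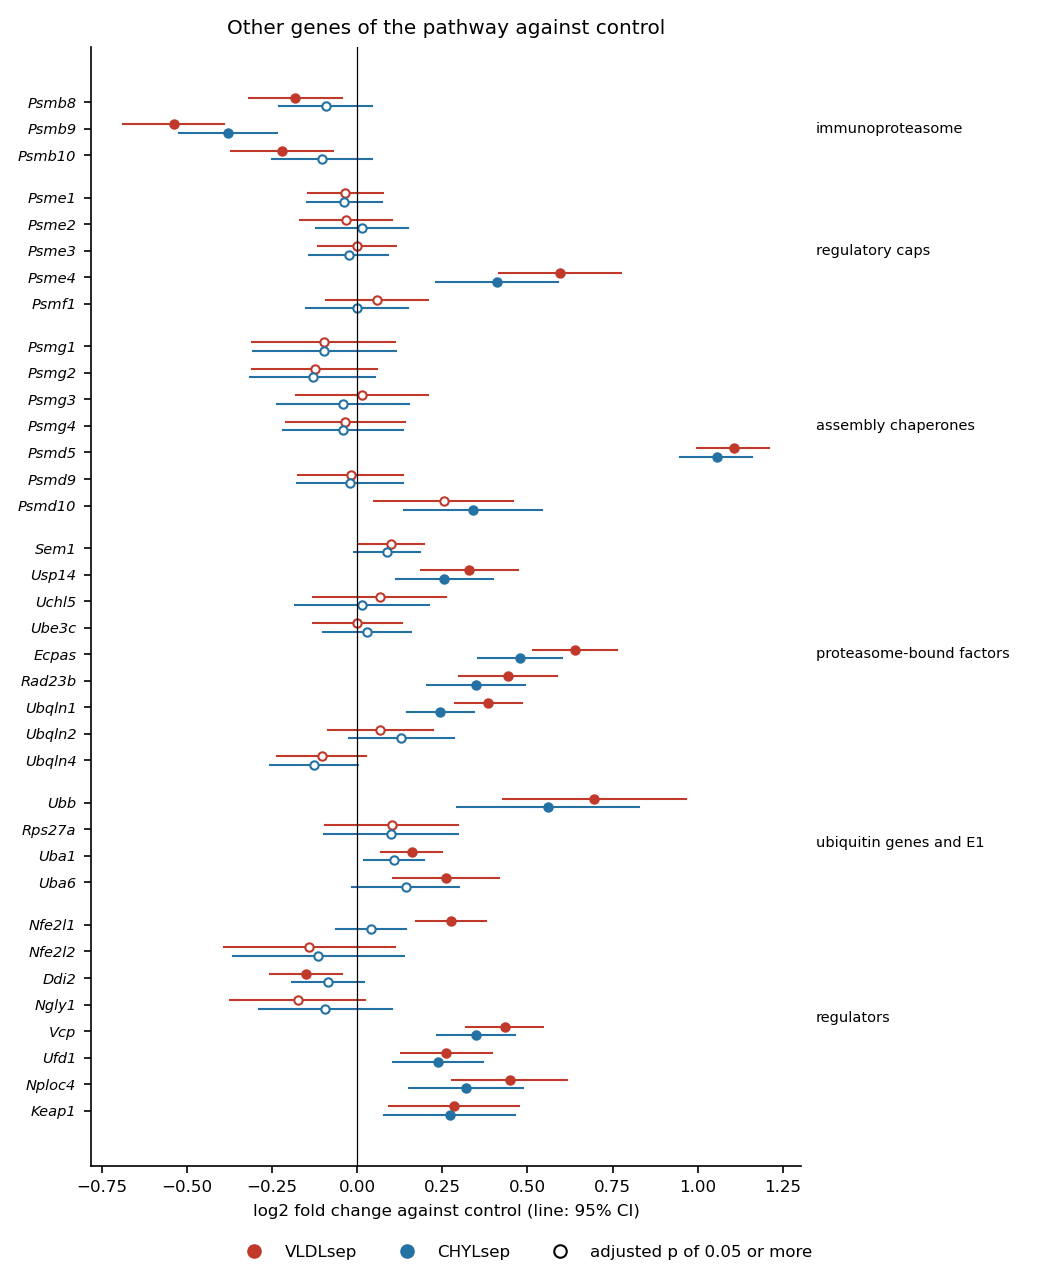
Log2 fold change against control of other genes of the pathway that were tested, after VLDL-sized (red) and CHYL-sized (blue) particles, grouped by role, with 95% confidence intervals from limma-voom; filled points have an adjusted p under 0.05. *Psmd5* lies farthest to the right and *Psmb9* farthest to the left, and most intervals of the caps and core chaperones include 0.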

How the data were processed

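The authors quantified BGISEQ-500 paired-end reads with Salmon 0.14.1 on GENCODE transcripts of GRCm38.p6, summarized them to genes with tximport and deposited a table of estimated counts, 1 column a library. Of the deposited values over 10, 58.3% were whole numbers. The methods also mention scaling with transcript lengths, of which the values bear no sign, and they were used as deposited.

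The 12637 genes that exceeded 10 counts in 3 or more of 9 libraries were tested with limma 3.58.1 (voom) in R 4.3.3 on TMM factors from edgeR 4.0.16, in 1 model of the 9 libraries with group as the only term and Benjamini-Hochberg adjustment over all genes tested. Called means an adjusted p under 0.05. Levels are cpm of the TMM-scaled library size. The 33 members and the lists of other genes were chosen with earlier results of these data known. Members given library by library are the catalytic subunits, *Pomp* and, in each comparison with control, those with the 2 highest and the 2 lowest fold changes. *Psmc1*, *Psmd1*, *Psmd14* and others were given by range. Symbols were matched for 54346 of the identifiers. GENCODE (GRCm38) gave gene positions and lengths, and RefSeq gave promoters.

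Same-numbered libraries deviated together from their group means over all genes tested: the correlations were 0.24, 0.21 and 0.41 for replicates 1, 2 and 3 of VLDLsep and CTRL, and 0.18, 0.13 and 0.46 for CHYLsep and CTRL. All are over 0.1, so calls or values with a replicate block are given beside those comparisons where they change a call, although no source says that a number marks a shared experiment. For VLDLsep and CHYLsep they were 0.096, 0.18 and 0.5.

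Ratios of catalytic subunits are log2 ratios of counts with 0.5 added. For edgeR and DESeq2 1.42.0 the counts were rounded. The steps were tested on simulated counts. The depth per library was nearly equal. Alternatives were other tools, normalizations, filters, samples, blocking by replicate and leaving out each replicate; the addition of the counts of *Gm3375* and *Gm13835* was chosen after seeing the data. Some genes of the pathway lists are included in the counts but not reported here by name.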

Additional observations from a re-analysis of the deposited data

How the results depend on the processing

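For the 33 members, the number called higher stayed within 1.5 times of 28 and of 20 under each of the 15 alternatives, and none was called lower. The exceptions were in other values. Library size only moved the median log2 fold change from 0.291 to 0.197 after VLDL-sized and from 0.239 to 0.159 after CHYL-sized particles, where the median of all genes tested stood at -0.0935 and -0.0788, and turned *Psmc3* and *Psmd3* after CHYL-sized particles to -0.00027 and -0.00287. It left 7 and 4 other genes of the pathway called lower in place of 4 and 1, and no filter left 2 after VLDL-sized particles. With 1 library or replicate 3 of every group left out, the median after VLDL-sized particles ranged from 0.233 (without VLDLsep replicate 3) to 0.306, the other genes called lower after VLDL-sized particles from 1 to 4, the members called higher between the particle sizes from 0 to 1 (*Psmd11*), the other genes called higher between the sizes from 0 to 2 (*Nfe2l1* among them), *Pomp* between the sizes from -0.0655 to 0.0244, and the log2 ratio of *Psmb5* to *Psmb8* between the sizes from -0.00599 to 0.185. Without replicate 3 of every group, 1.15% of all genes tested were called higher between the sizes. DESeq2 and the replicate block also called 2 other genes of the pathway higher between the sizes, against 0.095% and 0.586% of all genes tested. The replicate block raised the members called from 28 to 32 and from 20 to 30, and the other genes called lower after CHYL-sized particles from 1 to 2. It raised the share of all genes tested called higher from 17.8% to 24.1% and from 12.7% to 19.5%. It turned no direction of a member against control. Between the particle sizes the sign of 14 of the 33 members turned in at least 1 alternative, in each case one that leaves out replicates. The level per kb depends on the transcript chosen and was compared only where the longest and median lengths were within 1.5 times. The causes were not tested.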
